A study of Rattus norvegicus with 38 samples.

Results

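Healthy left ventricle (LV) was compared with healthy left atrium (LA) in the rat heart. Of the 38 libraries of the series, 6 belong to these groups: 2 from the ventricle, LV_1001 and LV_1002, and 4 from the atrium, LA_0920, LA_0921, LA_1001 and LA_1002. They were chosen by the chamber and the health state in their labels, and no other healthy LV library was analysed here. All came from male Sprague-Dawley rats aged 10 weeks, and small pieces of tissue were taken from explanted hearts for RNA sequencing. The series is about a rat model of cardiac hypertrophy in which the ascending aorta is constricted in pups. The protocol text on the healthy libraries also describes this constriction, and whether the healthy rats had any surgery is not stated there. The 8 libraries of failing LV and LA (4 each) served as a further comparison of the same chambers. Whether libraries with a shared 4-digit code came from 1 animal is not stated, so the p-values measure the spread between these libraries.

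Both chambers are built mainly of striated heart muscle cells, with fibroblasts, vessels and other cells between them. Ventricular muscle generates the pressure that drives the circulation, while atrial muscle contracts against low load and also stores and releases natriuretic peptides. Several contractile proteins, ion channels and transcription factors are known to differ between atrial and ventricular muscle. The deposited tables carry Ensembl gene IDs and do not pair them with names, and 0 of the IDs matched the reference table used here. Genes are therefore described by ID (2 in each direction), by their rank and by their levels. The labelled chambers could not be checked against named marker genes, and gene lists for muscle, channels, metabolism and cell types were not applied. In pieces of tissue, fewer cells of a type and less RNA per cell cannot be told apart.

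Many genes differed between the chambers, in both directions. Of 14367 genes tested with the quasi-likelihood test of edgeR, 3230 (22.5%) were higher in the ventricle and 3023 (21.0%) lower, together 6253 (43.5%), at a Benjamini-Hochberg adjusted p under 0.05. Most differences were modest. The median size was 0.69 on the log2 scale for genes higher in LV and 0.74 for genes lower in LV. Over all genes tested, large differences were more often towards the atrium. At least 2-fold differences were estimated for 946 higher and 1138 lower genes, at least 8-fold for 115 and 251, and at least 32-fold for 36 and 66. At 2-fold the order turned with the mean level of the gene. There were 161 higher and 386 lower genes under 1 TPM, and 325 and 535 between 1 and 10 TPM. Between 10 and 100 TPM there were 311 and 196, between 100 and 1000 TPM 121 and 13, and from 1000 TPM 28 and 8. Tested against a 2-fold difference itself, an alternative chosen after seeing the data, 399 genes were higher and 509 lower. Without LV_1002, which leaves a single ventricle whose spread is taken from the atria, 2362 genes were higher and 1992 lower.

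These calls are relative to the bulk of genes in each library, because libraries were scaled by TMM, and the choice of scale matters in this comparison. The TMM factors were 0.811 and 0.76 in the ventricles and 1.09 to 1.17 in the atria. On unscaled TPM, the length-corrected share of each gene among all transcripts, limma on log2(TPM + 1) called 704 genes higher and 10143 lower in LV, with the median of all genes at -0.57. After TMM scaling of the TPM values the numbers were 3168 and 3086, with the median at -0.03.

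**Figure D1:**
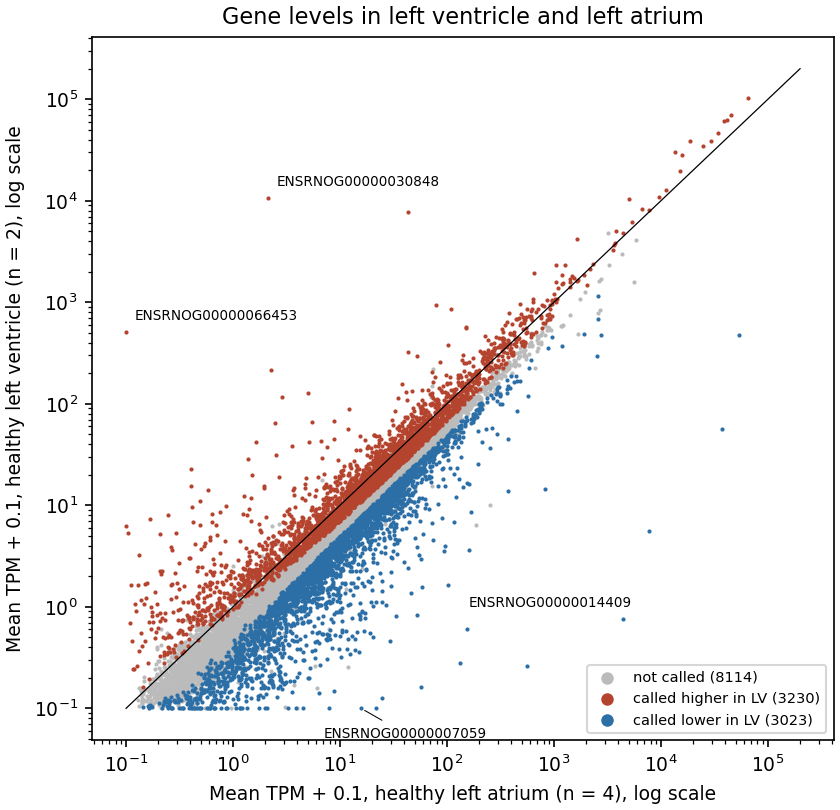
Mean TPM + 0.1 of each tested gene in healthy left atrium (x axis, n = 4, log scale) and healthy left ventricle (y axis, n = 2, log scale), with the line of equal TPM. Red points are the 3230 genes called higher in the ventricle and blue points the 3023 called lower, and the 4 genes given by ID are labelled, with 2 of them on the edge where the other chamber is at 0.

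The direction of the difference went with the level of the gene. Among the 71 genes with a mean of 1000 TPM or more, 69% were higher in LV and 12.7% lower. Among the 656 genes between 100 and 1000 TPM the shares were 56.2% and 11.1%. Between 10 and 100 TPM, 34.3% of 4907 genes were higher and 19.8% lower. Below that the order turned, with 15.3% higher and 25% lower of 6188 genes between 1 and 10 TPM, and 7.23% and 16.6% of 2545 genes under 1 TPM. The share called higher thus rose with level, and lower calls outnumbered higher ones only under 10 TPM. These are shares within each level class. By number, 1683 of the 3230 higher genes lay between 10 and 100 TPM, and 1546 of the 3023 lower genes between 1 and 10 TPM. Genes with more counts are also called more readily, and on unscaled TPM most genes lay lower in LV. The part of depth and scale in these shares was not tested.

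A small number of very abundant genes took more of the ventricular transcriptome. The 10 most abundant genes of each library held 52.3% of TPM in LV_1001 and 51.1% in LV_1002, against 39.3%, 38.9%, 38% and 39.6% in LA_0920, LA_0921, LA_1001 and LA_1002. Both ventricles lay above all 4 atria. In each ventricle 10 genes sufficed for 50% of TPM, while 21 to 26 were needed in the atria. Genes called higher in LV held 84.5% and 84.8% of TPM in the ventricles and 58.5% to 62% in the atria. Genes called lower in LV held 3.02% and 2.76% in the ventricles and 18% to 19.6% in the atria. Both sets were chosen on these libraries, so the direction of these shares follows from the choice and is a description. The number of genes at 1 TPM or more was 11213 and 10899 in the ventricles and 12181 to 12382 in the atria.

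**Figure D2:**
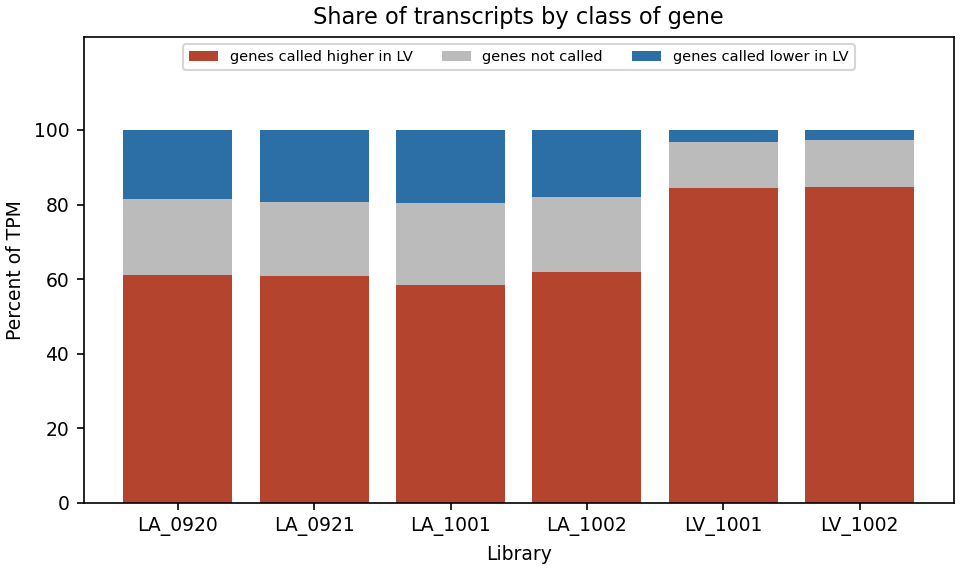
Percent of TPM (y axis) held by the genes called higher in LV, not called and called lower in LV, for each healthy library (x axis). The 2 ventricular bars are 84.5% and 84.8% red, against 58.5% to 62% in the 4 atrial bars, for genes chosen on these libraries.

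The chambers shared most of their leading genes. Of the 10 genes with the highest mean TPM in each chamber, 8 were common to both. All 10 of the ventricular list were called higher in LV, with log2 differences of 1.18 to 1.92 and edgeR adjusted p of at most 7e-04, and in unscaled TPM both ventricles also lay above all 4 atria for 10 of 10. The list was chosen by level in these same ventricles, which favours genes high in LV, so this count is a description. Of the 71 genes with a mean of 1000 TPM or more, 69% were called higher. The leading gene of both chambers had 107000 and 101000 TPM in the ventricles and 67300, 65700, 61300 and 68300 TPM in the atria. Its log2 difference was 1.43 (SE 0.11, edgeR adjusted p = 2.7e-06).

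The atrial list held 2 genes that were far down in the ventricle. The gene ranked 2 in LA had 48400, 54300, 58000 and 55900 TPM in the atria, but 456 and 500 TPM in the ventricles, where it ranked 144. Its log2 difference was -6.05 (SE 0.18, edgeR adjusted p = 3.2e-09). The gene ranked 6 in LA had 35200, 38300, 43700 and 31900 TPM in the atria, and 46.6 and 66.7 TPM in the ventricles, where it ranked 1042. Its log2 difference was -8.59 (SE 0.25, edgeR adjusted p = 3.8e-09). Both were also abundant in the healthy right atrium, with 67100 to 71100 and 32000 to 35700 TPM. No gene among the ventricular 10 was comparably low in the atrium.

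The gene with the largest estimated fold change towards the ventricle was ENSRNOG00000030848. It had 9440 and 11800 TPM in LV_1001 and LV_1002, and 2.68, 2.82, 1.62 and 1.06 TPM in LA_0920, LA_0921, LA_1001 and LA_1002. The atrial values rest on 8.7 to 23.9 estimated counts per library, against 83516 and 95408 in the ventricles. The groups did not overlap, and the log2 difference was 13.10 (SE 0.25, edgeR adjusted p = 4.3e-10). Across the other healthy regions the gene stayed low, at 1.51 to 16 TPM in the right atrium, 9.93 to 56.7 in the inferior sinoatrial node and 11.2 to 71.5 in the superior node. Both node parts thus had ranges that began above the highest LA library, yet all their libraries were far below the ventricle.

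The gene next in order towards the ventricle was ENSRNOG00000066453. It had 374 and 636 TPM in LV_1001 and LV_1002, and was at 0 in all 4 atria. Its reads were few for this level, with 295.2 and 460.2 estimated counts in the ventricles. Against a floor of 3 counts per atrial library, its mean CPM was at least 150-fold higher in LV. edgeR gave an adjusted p of 0.00013, and its fitted log2 value of 12.14 depends on the prior count. In the healthy right atrium 3 of 4 libraries were at 0 and the other had 1.46 TPM.

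Towards the atrium the largest fitted value was that of ENSRNOG00000007059, which was at 0 in both ventricles. Its place depends on the prior count: with limma on log2(TPM + 1) its difference was -4.05, against -11.39 for ENSRNOG00000014409. It had 17, 15.8, 16.5 and 13.3 TPM in LA_0920, LA_0921, LA_1001 and LA_1002, from 1029.3 to 1388.5 estimated counts. Its mean CPM was at least 353-fold lower in LV against the floor of 3 counts per ventricular library (edgeR adjusted p = 8.9e-09). It was present in every other healthy region, at 27.9 to 36.1 TPM in the right atrium, 20.1 to 37.4 in the inferior node and 11.3 to 25.2 in the superior node. The right atrial range lay wholly above the left atrial one.

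The gene next in order towards the atrium was ENSRNOG00000014409. It had 4100, 4370, 4670 and 4630 TPM in LA_0920, LA_0921, LA_1001 and LA_1002, and 0.749 and 0.568 TPM in LV_1001 and LV_1002. The log2 difference was -11.95 (SE 0.22, edgeR adjusted p = 5.7e-11). The healthy right atrium had 4190 to 4610 TPM, a range that overlaps the left atrium, and the nodes had 2150 to 3210 (inferior) and 889 to 3180 (superior). The ventricle was thus the only healthy region sampled in which this gene was under 1 TPM.

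**Figure D3:**
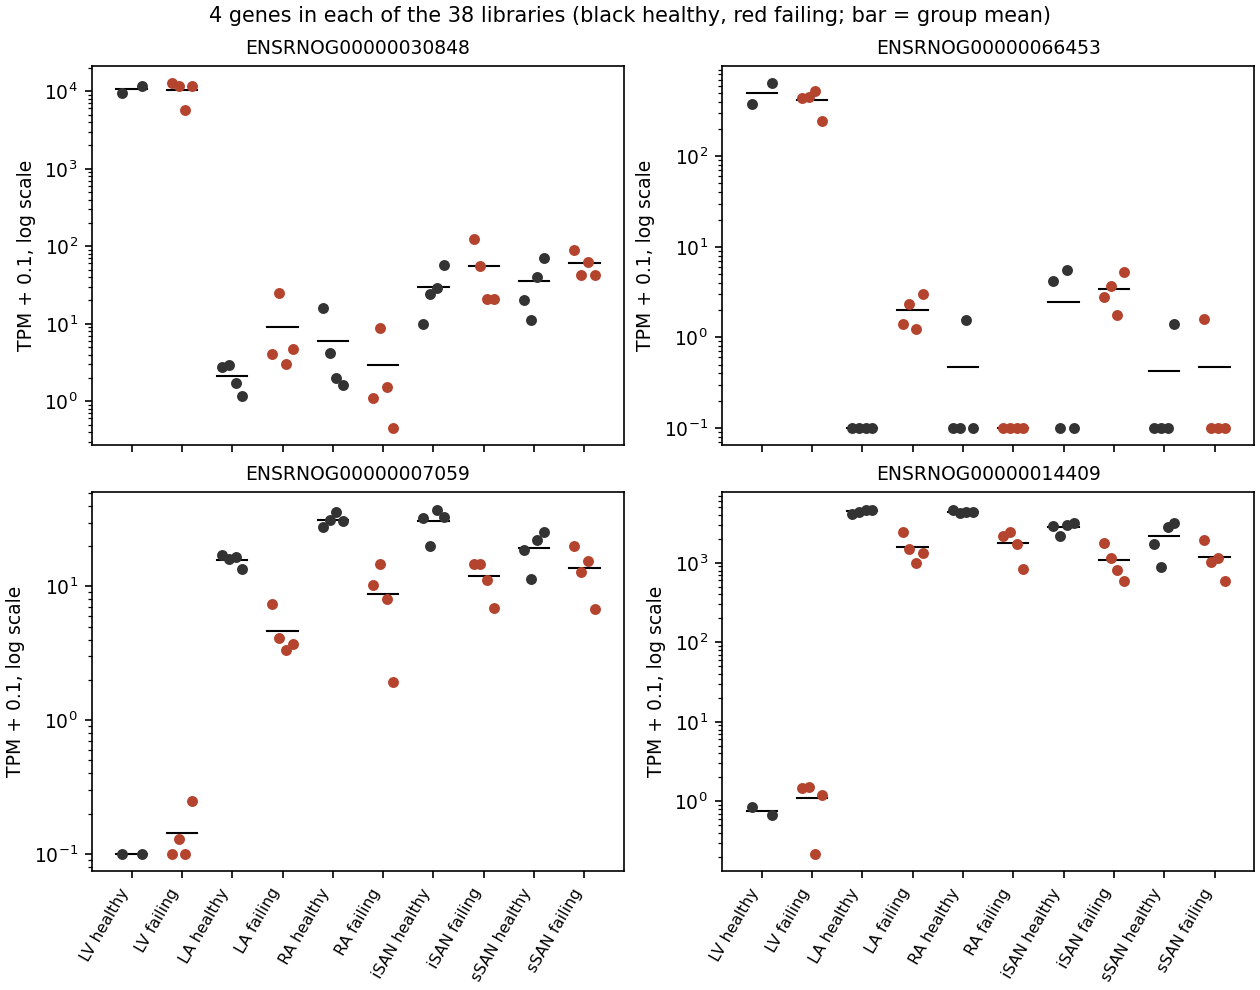
TPM + 0.1 (y axis, log scale) of the 4 genes given by ID in each of the 38 libraries, by region and health state (x axis; black healthy, red failing; bars are group means). The upper genes are highest in the ventricle, at 245 TPM or more in its 6 libraries, and the lower genes are at most 1.41 TPM there.

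The 15 genes of largest fold in each direction, restricted to non-overlapping groups and a log2 CPM averaging 1 or more, spanned log2 sizes of 5.54 to 13.10 (median 6.54) towards LV and 6.05 to 13.07 (median 9.07) towards LA. Their mean levels in the higher chamber ran from 5.2 to 10600 TPM in LV and from 1.66 to 54200 TPM in LA. The 15 atrial genes therefore included both genes ranked 2 and 6 in LA.

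Chamber-restricted genes were defined as called genes with a mean of at least 5 TPM in one chamber and under 1 TPM in every library of the other. There were 19 LV-restricted and 75 LA-restricted genes. Since the scale moves these thresholds, the count was repeated with TMM-scaled TPM, a choice made after seeing the data. It then gave 27 LV-restricted and 45 LA-restricted genes, which included 19 of the 19 and 45 of the 75. Most were of moderate level, with a median of 7.23 TPM in LV and 9.43 TPM in LA. All libraries of the other chamber were at 0 counts for 2 of the LV-restricted and 3 of the LA-restricted genes.

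By level the lists were led by ENSRNOG00000066453 and ENSRNOG00000014409, of which the latter was not LA-restricted with TMM-scaled TPM. The next LV-restricted gene had 21.8 and 24 TPM in the ventricles and 0.11 to 0.614 TPM in the atria (log2 difference 7.01, SE 0.32, edgeR adjusted p = 1.1e-06). The one after it had 20.1 and 10.9 TPM in the ventricles against 0.21 to 0.407 TPM in the atria. It was higher still in the failing ventricles, at 163, 100, 66.8 and 382 TPM. Within these lists levels reached higher on the atrial side, which depends on the limit of 1 TPM. ENSRNOG00000030848, with a mean of 10600 TPM in LV, was not LV-restricted because its LA libraries had 1.06 to 2.82 TPM. The most abundant LA-restricted gene after ENSRNOG00000014409 had a mean of 562 TPM in the 4 atria, with 598 TPM in the highest library, and 0.13 and 0.19 TPM in the ventricles (log2 difference -10.99, SE 0.20, edgeR adjusted p = 5.7e-11).

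LA-restricted genes were mostly shared with the right atrium. In the healthy right atrium, 61 of the 75 had a mean of at least 5 TPM, 12 lay between 1 and 5 and 2 were under 1 TPM. In the healthy nodes, 54 (inferior) and 39 (superior) had at least 5 TPM. LV-restricted genes were mostly low there: 17 of 19 were under 1 TPM in the healthy right atrium, 10 in the inferior and 12 in the superior node. At least 5 TPM was reached by 1, 3 and 4 of them in these regions, and the highest superior node mean was 18.6 TPM, for a gene with a mean of 6.69 TPM in LV. These are descriptions of the genes' levels and carry no test.

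A few genes separated the left from the right atrium as well. The LA-restricted gene with the lowest right atrial level had 13.5, 13.4, 15.5 and 11.9 TPM in LA and 0.038, 0.132, 0 and 0.0898 TPM in the right atrium, with 0.155 and 0.394 TPM in the ventricles. It was thus high in the left atrium and low in both other chambers. Another LA-restricted gene had 25 to 35.5 TPM in LA against 0.941 to 2.46 TPM in the right atrium. In the opposite pattern, an LV-restricted gene with 4.69 and 7.53 TPM in the ventricles and 0 in all 4 left atria had 9.21 to 12.1 TPM in the right atrium. Its means in the healthy nodes, 8.72 (inferior) and 7.8 TPM (superior), were also above its LV mean of 6.11 TPM. In failing LV its mean was 0 TPM. Among the healthy regions it was thus low only in the left atrium. A further LA-restricted gene was uneven among the healthy left atria, with 17.5, 9.28, 1.76 and 2.87 TPM, and had 89.4, 79.9, 63.3 and 105 TPM in the failing ones. The lower values are those of LA_1001 and LA_1002, whose codes the ventricles share, so its place in the list rests on the other codes. It did not separate the atria, with means of 7.85 TPM in healthy LA and 8.72 TPM in the healthy right atrium. In the failing right atrium its mean was 66.6 TPM. These genes were singled out after their values were seen.

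**Figure D4:**
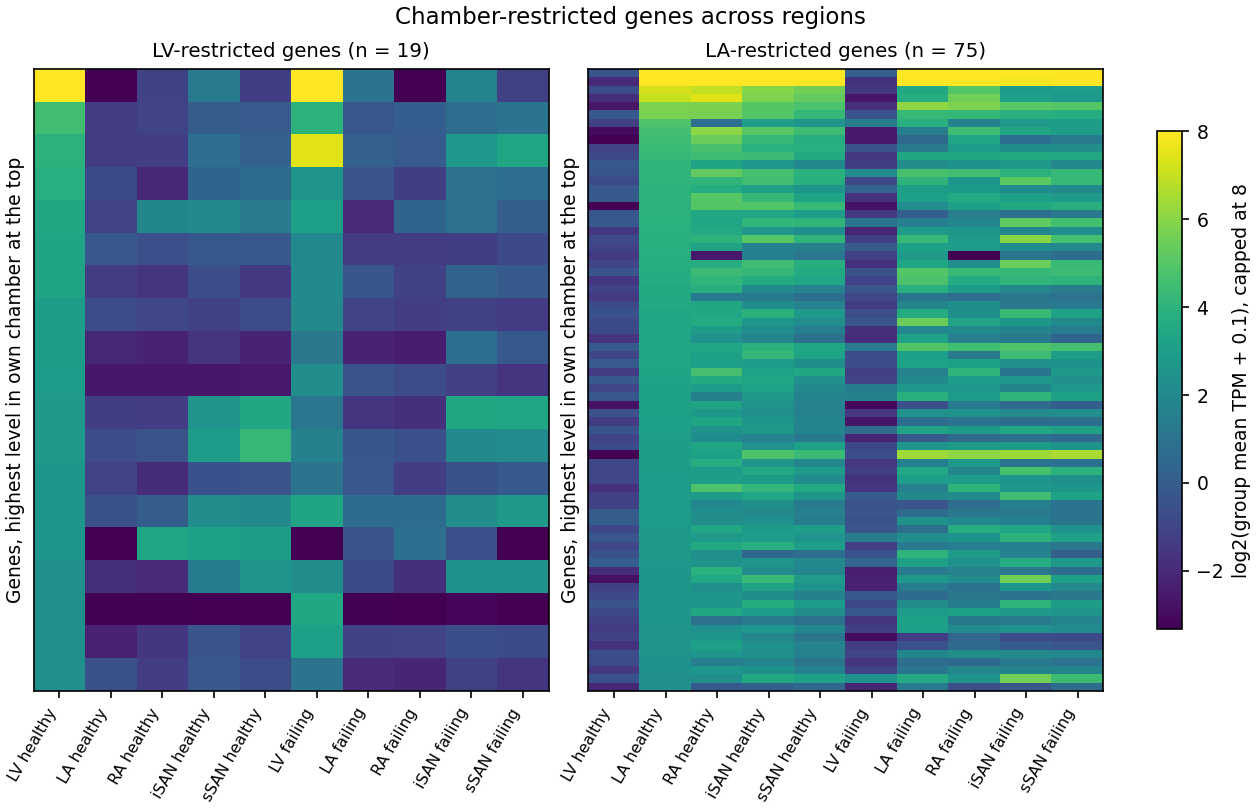
Group mean levels, as log2(mean TPM + 0.1), of the 19 LV-restricted (left) and 75 LA-restricted genes (right), 1 gene per row, in each region and health state (columns). LA-restricted genes are bright in nearly all columns except the ventricles, and LV-restricted genes are bright mainly in the ventricles.

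The chamber difference was examined again in failing hearts, whose libraries the healthy comparison did not use. In failing LV against failing LA, 1490 of 13830 genes passed (10.8%), with 811 higher and 679 lower in LV. These libraries varied more, with a common biological coefficient of variation of 0.364 against 0.13 in the healthy fit. The total was also sensitive to single libraries: 602 without LA_0506, 673 without LV_0506, 827 without LA_0508, 859 without LA_0507, 975 without LV_0409 and 992 without LA_0409. It rose to 1915 without LV_0507 and to 2107 without LV_0508.

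Genes called in healthy hearts mostly kept their direction in failing ones. Of the 3179 genes called higher in healthy LV and tested in failing hearts, 2898 (91.2%) had the same sign there. Of them, 719 (22.6%) passed in the same direction and 3 in the opposite one. Of the 2881 called lower, 2563 (89%) had the same sign, with 536 (18.6%) passing in the same direction and 6 in the opposite one. Most healthy calls thus did not pass in failing hearts. Over all 13636 genes tested in both, called or not, 76% had the same sign and 10.3% passed in the same direction. Read the other way, 1462 genes called in failing hearts were tested in healthy ones, and 1255 (85.8%) of them were called there in the same direction and 9 in the opposite one, beside 43.5% called in either direction over all genes tested in healthy hearts. Of the 15 genes of largest fold, 15 of 15 tested towards LV and 13 of 13 tested towards LA passed in failing hearts in the same direction.

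The restricted genes were followed in the same way. Of the 19 LV-restricted genes, 18 were tested in failing hearts, 18 had the same sign and 17 passed. The gene left out had a mean of 0 TPM in failing LV and 0.679 TPM in failing LA. Of the 75 LA-restricted genes, 68 were tested, 66 had the same sign and 56 passed, while for 3 the chamber difference passed as changed with health state. Those left out had means of 0.325 to 6.37 TPM in failing LA. These counts thus cover only genes that passed the count filter in failing hearts. A mean of at least 5 TPM was kept by 8 of the 19 LV-restricted genes in failing LV and by 42 of the 75 LA-restricted genes in failing LA. These genes were chosen for large healthy differences, so a share above the 10.8% over all genes tested is described here and not tested.

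Among the genes given by ID, ENSRNOG00000030848 had 5660 to 12600 TPM in failing LV and 2.94 to 24.9 TPM in failing LA (log2 difference 11.19, SE 0.91, edgeR adjusted p = 0.00049). ENSRNOG00000066453 had 245 to 528 TPM in failing LV and 1.12 to 2.9 TPM in failing LA (log2 difference 8.96, SE 0.82, edgeR adjusted p = 8e-04). ENSRNOG00000007059 had at most 0.149 TPM in failing LV and 3.25 to 7.3 TPM in failing LA (log2 difference -6.03, SE 0.80, edgeR adjusted p = 0.0029). Its failing LA range lay below the healthy LA range. ENSRNOG00000014409 had 0.118 to 1.41 TPM in failing LV and 1000 to 2470 TPM in failing LA (log2 difference -9.83, SE 0.70, edgeR adjusted p = 0.00024), again with a failing LA range below the healthy one. For none of the 4 did the chamber difference pass as changed with health state, with edgeR adjusted p of 0.66, 0.87, 0.38 and 0.4 in this order.

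**Figure D5:**
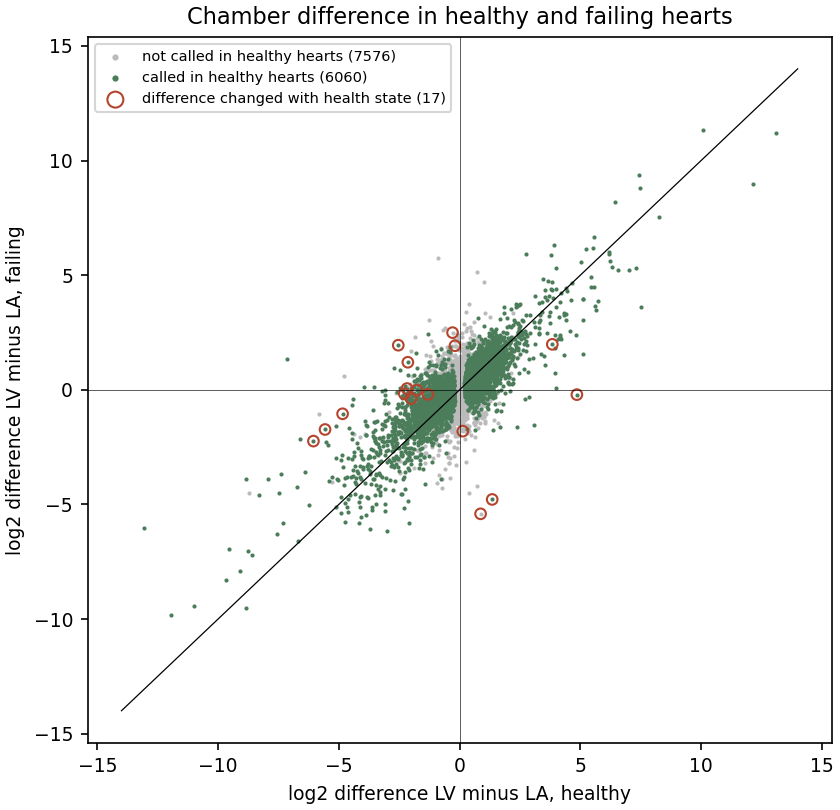
log2 difference LV minus LA of each gene tested in both states, in healthy hearts (x axis) and failing hearts (y axis), with the line of equal difference. Green points are genes called in healthy hearts, and open circles mark the 17 genes whose difference passed as changed with health state.

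Whether the chamber difference itself changed with health state was tested as an interaction. With edgeR 17 of 14925 genes passed (0.114%). In 12 of them the LV minus LA difference was higher in failing than in healthy hearts, by 1.15 to 4.53 on the log2 scale. Of these 12, 10 had been called lower in healthy LV, beside 21.0% over all genes tested in healthy hearts. The interaction subtracts the same healthy difference, so this count is partly built in and is a description. The other 5 changed the opposite way, by -6.21 to -1.81. The number moved with single libraries. Without any 1 of the 6 healthy libraries (LV_1001, LV_1002, LA_0920, LA_0921, LA_1001 or LA_1002), 0 genes passed with edgeR, and 691 to 914 had an unadjusted p under 0.05. Without the failing LA_0506, 0 passed and 893 had an unadjusted p under 0.05. Of the other failing libraries, leaving out LV_0506 gave 1, LA_0508 gave 3, LA_0507 gave 8 and LV_0507 gave 37. DESeq2 with all libraries called 175. At an unadjusted p under 0.05 DESeq2 had 1375 genes and edgeR 1066.

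The gene ranked 2 in healthy LA was among the 12. It had 9810, 3690, 7470 and 25800 TPM in the failing ventricles LV_0409, LV_0506, LV_0507 and LV_0508, against 456 and 500 TPM in the healthy ones. In LA it had 86000, 88600, 90500 and 120000 TPM in failing hearts. Every failing library of either chamber thus lay above every healthy one of that chamber. The log2 chamber difference was -2.24 in failing hearts (SE 0.48, edgeR adjusted p = 0.021), and the interaction was 3.86 (SE 0.63, edgeR adjusted p = 0.042). The gene ranked 6 in healthy LA did not pass as changed: it had 343, 85.5, 8.6 and 58.7 TPM in the failing ventricles and 24600 to 32900 TPM in failing LA, with an interaction of 1.42 (SE 0.89, edgeR adjusted p = 0.83).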

How the data were processed

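RNA sequencing of rat heart tissue gave estimated counts and TPM per gene for 38 libraries. The submitters' processing notes name Trimmomatic 0.39, a read trimmer, and kallisto 0.48.0, a transcript quantifier. How transcripts were summed to genes, and with which annotation, is not stated in them. The deposited estimated counts were rounded to whole numbers. In all 13474 genes above 0 in every library the ratio of count to TPM was a gene term times a library term, so the authors' counts are already scaled by length. The deposited TPM values were used for levels.

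The 6 healthy libraries held 19785114 to 25503662 counts. Genes were kept by filterByExpr (minimum 10, total 15), scaled by TMM and tested in R 4.3.3 by edgeR 4.0.16 (quasi-likelihood, robust), on the healthy groups alone, the failing groups alone, and all 4 groups for the interaction, at a Benjamini-Hochberg adjusted p of 0.05. The script was tested on simulated data in which few genes were changed, in random directions. That does not test the scaling where many genes differ, as between these chambers. CPM are before TMM scaling. The SE given with edgeR values is the size of the log2 difference divided by the square root of the F statistic. It depends on the fit: for ENSRNOG00000030848 it was 0.25 in the main fit and 1.14 in 1 fit of all 38 libraries. Alternatives used DESeq2 1.42.0 and limma 3.58.1. An exact permutation of 2 against 4 libraries cannot go below p = 0.0667.

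Genes given by ID were the 2 of largest fold in each direction among called genes whose groups did not overlap and whose log2 CPM averaged 1 or more. Of the gene IDs, 0 matched the reference table, so gene lists and cell type markers were not applied and no sequence is shown. Members and lists were chosen with earlier results of these data known.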

Additional observations from a re-analysis of the deposited data

Results flagged for a closer look

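The difference between LV and LA differed between failing and healthy hearts for 17 genes, by the interaction test of edgeR. Over 38 groups of 4 libraries, taken from the TPM of the 4 genes given by ID and from 4 measures of abundance in healthy LA, 6 had 1 library far from the other three, where chance gives about 1 in 20. For ENSRNOG00000030848 these were LV_0507 among the failing ventricles with 5660 TPM, LA_0506 among the failing left atria with 24.9 TPM, and RA_0506 among the failing right atria with 8.7 TPM. For ENSRNOG00000066453 they were RA_1001 among the healthy right atria with 1.46 TPM, ST_1002 among the healthy superior nodes with 1.3 TPM, and sSAN0409 among the failing superior nodes with 1.48 TPM. In each of these last groups the library set apart had 1 estimated count and the remaining libraries were at 0. With the remaining values tied at 0, the rate of 1 in 20 cannot be assumed for them.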

How the results depend on the processing

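The 4 genes given by ID kept their direction and passed in all 17 of their alternatives. The balance of calls did turn. limma called 704 genes higher and 10143 lower in healthy LV on log2(TPM + 1), 699 and 10313 on log2(TPM + 0.1), and 720 and 9978 without a filter. One fit of all 38 libraries called 1822 and 1576, and the test against a 2-fold difference 399 and 509. LA-restricted genes numbered 47 with limma on TMM-scaled TPM and 45 with scaled thresholds. For failing hearts DESeq2 called 2749, limma on log2(TPM + 1) 2660 and the fit of all 38 libraries 5295. For the interaction DESeq2 called 175, limma 78 on log2(TPM + 1), 26 on log2(TPM + 0.1), 78 without a filter and 105 on TMM-scaled TPM, and the fit of all libraries 70. On log2(TPM + 0.1) 12 of these were higher and 14 lower, against 12 and 5 in edgeR. Leaving out 1 library gave 2362 to 3198 higher and 1992 to 2972 lower genes in healthy LV, 17 to 21 LV-restricted and 73 to 109 LA-restricted genes, 602 to 2107 in failing hearts and 0 to 37 for the interaction. With the code as a replicate block, healthy hearts gave 2885 and 2634, failing hearts 1082 (537 higher, 545 lower) and the interaction 1, which was lower. LV and LA libraries were also correlated by their departures from the chamber mean of each gene, not by their levels. On this measure libraries with the same code correlated at 0.08 and 0.21 in healthy and at 0.06 to 0.38 in failing hearts. Those with different codes ran from -0.21 to 0.11 in healthy and from -0.54 to 0.36 in failing hearts. The healthy values of LV_1001 and LV_1002 mirror each other, so they cannot show a pairing. Whether the codes pair samples was not tested. The causes of these changes were not tested. The healthy ventricle has 2 libraries.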
